A study of Mus musculus with 20 samples.

Results

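Complement genes were described in the hippocampus of mice infused with human small RNAs (sRNAs). The 9 genes are C1qa, C1qb, C1qc, C1ra, C3, C4b, C3ar1, C5ar1 and Serping1, chosen by gene name among the 25190 genes of the count table, and each matched 1 row. Complement is a protein cascade of innate immunity. In its classical branch, C1q binds a target and activates the proteases C1r and C1s, which cleave C4 and C2 so that C3 is split into a fragment that tags the target and a fragment that signals to receptors. In the brain, C1q and C3 are known for tagging synapses that microglia then remove, and structural variation of the human C4 genes is associated with schizophrenia.

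The 20 libraries came from wild-type male C57BL/6JOlaHsd mice of 4 months, 5 in each of 4 groups, and the question was whether sRNAs from patients with schizophrenia alter the hippocampus. Artificial cerebrospinal fluid was given to Vehicle mice, a pool of sRNAs from 9 people without the disorder to Control mice, and a pool from 10 patients to Pool 1 mice and from another 10 to Pool 2 mice. The mice carried cannulas on both sides in dorsal CA1, through which 2 µL was infused per side on 2 occasions separated by 48 hours (sRNA concentration, 0.24 µg/µL), and hippocampal tissue was collected 24 hours after behavioural testing ended. Each infused preparation is 1 pool, so differences between groups are differences between 4 preparations. The labels do not say how many mice gave each sample. Each is treated here as 1 mouse, and p-values measure the spread between these samples.

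Polyadenylated RNA was sequenced, and totals ranged from 20588280 to 25543939 counts per library, at which 3 counts correspond to 0.117 to 0.146 CPM (counts scaled to library size). Pool 2 replicate 1 lay furthest from the other libraries of its group, by a small margin. The SD of its log2 values from the median of the other libraries of its group was 0.541, against 0.293 to 0.499 in the other 19 libraries. For 8 of the 9 complement genes it had the highest value of all 20 libraries, and fold changes and counts for Pool 2 mice are therefore given with and without it. The hippocampal markers Wfs1, of CA1 pyramidal neurons, and Prox1, of dentate granule cells, were present in every library, at 102 to 403 CPM and 45.3 to 209 CPM. Markers of the choroid plexus, a neighbouring tissue, summed to 94.7 CPM in Pool 2 replicate 1, the lowest of all 20 libraries, and to 9028 CPM in Vehicle replicate 4, the highest.

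The 3 chains of C1q are encoded side by side on the minus strand, within 18675 nt at chr4:136880129-136898803 (GRCm38), in the order C1qb, C1qc, C1qa. C4b lies at chr17:34728380-34743882 with 41 exons in its coding transcript, and its copy C4a, whose protein is known as sex-limited protein, lies 65209 nt away at chr17:34809092-34823464. C3 is at chr17:57203970-57228136, C1ra at chr6:124512405-124523443, C3ar1 at chr6:122847138-122856161, C5ar1 at chr7:16246743-16259540 and Serping1 at chr2:84765387-84775444. All 9 are protein-coding in the table, which types C4a as a long non-coding RNA.

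Near-identical copies limit what reads of 50 nt can tell apart for C4b and C1ra. Of the 50-base windows in C4b transcripts, 34.6% also occur in C4a, and 50.8% of those in C1ra occur in C1rb or Gm18840, whereas none of the windows of the other 7 genes occurs in another gene. The coding sequence of C4b is 96.1% identical to a C4a transcript over 5204 aligned bases, with an identical run of up to 433 bases. The 60 coding bases 2705 to 2764 of C4b are shown because they are the stretch where the copies differ most, so that reads there can be assigned to 1 of them. Capitals mark the 13 differing bases.
C4b: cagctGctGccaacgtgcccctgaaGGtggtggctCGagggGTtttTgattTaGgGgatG
C4a: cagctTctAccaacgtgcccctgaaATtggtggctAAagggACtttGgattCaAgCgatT
Both sequences are from GENCODE M21 transcripts. Values of C4b and C1ra are reads that the authors' counting assigned to them, and reads from the shared stretches could not be assigned to 1 gene alone.

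Promoter windows from 250 bases before to 50 bases after the start were available from RefSeq (GRCm38.p6) for 6 of the 9 genes, C1qb, C1qc, C1ra, C3, C3ar1 and C5ar1. They were searched on both strands for sites of factors known in glia and inflammation, namely STAT factors (GAS, TTCNNNGAA), interferon regulatory factors (ISRE core, GAAANNGAA), the myeloid factor PU.1 (core GAGGAAG), NF-kB (GGGANTTCC) and C/EBP (TTGCNNCAA). Only 3 windows held a match, each shown in 30 bases on the gene's strand with the match in capitals.
C1qc, PU.1 core, chr4:136893089-136893118: acggcagacaCTTCCTCattttggcacaca
C1ra, GAS, chr6:124512641-124512670: gcaaatgcttcaTTCCCTGAAacattcctc
C5ar1, ISRE core, chr7:16259385-16259414: agagacttccTTCCTTTTCcaagttgacat
The match in C1qc lay at positions -194 to -188 from the RefSeq start, that in C1ra at 33 to 41, inside the first exon, and that in C5ar1 at -66 to -58, on the opposite strand in C1qc and C5ar1. These RefSeq starts are 151, 216 and 202 bases inside the GENCODE genes. A PU.1 core was present in 13.6% of all 32851 promoter windows, a GAS in 8.30%, an ISRE core in 8.56%, an NF-kB site in 1.68% and a C/EBP site in 2.08%, so matches of this kind are common, and they describe these sequences without showing that a factor binds there.

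Levels differed widely between the genes. On the RPKM scale, which divides CPM by the length of the exons, the median over the 5 Control mice was 50.9 for C1qb, 48.003 for C1qa, 25.7 for C1qc, 11.2 for C4b and 3.22 for Serping1, the C1 inhibitor. It was 0.493 for C3ar1, 0.315 for C1ra, 0.312 for C4a, 0.247 for C5ar1 and 0.209 for C3. The ranges of neighbours overlapped between C1qb and C1qa, between C1qa and C1qc, and among C1ra, C4a, C5ar1 and C3, whereas C1qc, C4b, Serping1, C3ar1 and C1ra followed each other with no overlap. The recognition subunit was thus abundant. By the median over all 20 libraries, C1qb was above 95.4% of the 16664 genes with a mean count of at least 10. C3, the central component that C1q leads to, was above only 4.14% of them. C3 had as few as 5 counts in a library and C5ar1 as few as 4, so their values carry large counting errors. All 9 genes had a mean count of at least 10.

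In Pool 2 mice compared with Control mice, 8 of the 9 complement genes were upregulated and none was downregulated. A gene was counted as changed at the threshold of the study, which asks for a log2 fold change of 0.3 or more in size together with p under 0.05 before adjustment. At this threshold 5.20% of all 25190 genes were upregulated and 1.01% downregulated in this comparison. Only C5ar1 was not past it. By an exact two-sided permutation test of mean log2 CPM over 5 against 5 mice, p was 0.00794 for Serping1 and 0.0476 for C1ra. For the others of these 8 genes that test gave p from 0.0873 (C4b) to 0.270 (C1qc). The median log2 fold change of the 9 genes was 0.93, against 0.00 for all genes. The increases rested on 1 library for most of the genes: without Pool 2 replicate 1 only Serping1 was past the threshold, where 3.31% of all genes were upregulated and 1.17% downregulated, and the median log2 fold change of the 9 genes was 0.31. In both cases all 9 fold changes were positive, as were 50.7% and 50.6% of those of all genes. The 9 genes were measured in the same mice and are not independent. Without that library the log2 fold change of C5ar1 was only 0.089. The count past the threshold also fell to 4 genes (C1ra, C3, C4b and Serping1) without Control replicate 3, without Control replicate 4 and without Control replicate 5. In these fits 1115, 1322 and 1362 of all 25190 genes were upregulated, in that order, against 1311 over all libraries. No gene of the table had an adjusted p-value under 0.05 with edgeR's quasi-likelihood test, where 1939 had an unadjusted p-value under 0.05, while DESeq2 gave 18 genes with an adjusted p-value under 0.05, none of them a complement gene listed here. In such bulk tissue, more cells of a type and more RNA per cell cannot be told apart.

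**Figure D1:**
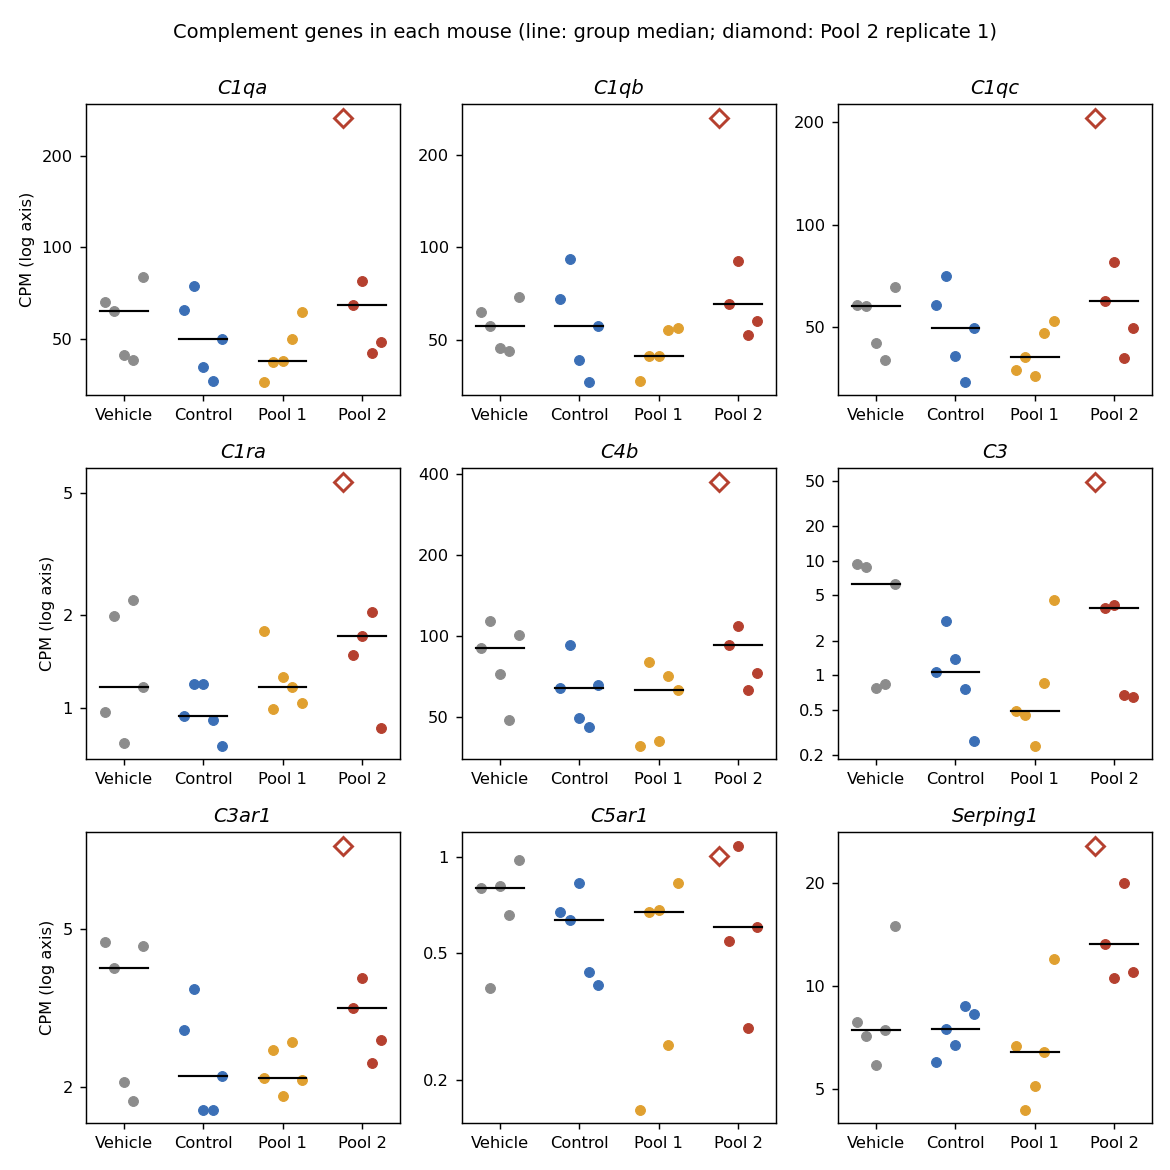
CPM of the 9 complement genes on log axes in the 5 mice of each group, with the group median as a line. The open diamond, Pool 2 replicate 1, is the highest library for every gene but C5ar1, and for Serping1 the other 4 Pool 2 mice also exceed all Control mice.

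C1qa, C1qb and C1qc encode the chains that assemble into C1q, and in the brain they are known as products of microglia. C1qa was at 66.3, 61.9, 44.4, 42.7 and 79.8 CPM in Vehicle mice (in order of replicate number, as in all such lists) and at 62.4, 74.6, 40.6, 36.4 and 49.9 CPM in Control mice. It was at 36.3, 42.2, 42.5, 50.3 and 61.6 CPM in Pool 1 mice and at 267, 64.8, 77.6, 45.1 and 48.8 CPM in Pool 2 mice. The first Pool 2 mouse had 3.34 times the highest other value, and the other 4 Pool 2 mice overlapped with every group. The log2 fold change of C1qa in Pool 2 against Control mice was 0.93 (SE 0.41, adjusted p = 0.618 by edgeR's quasi-likelihood test), and without Pool 2 replicate 1 it was 0.16 (SE 0.23).

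C1qb followed the same mice. It was at 61.6, 55.3, 47.0, 46.0 and 69.0 CPM in Vehicle, 68.0, 91.4, 43.0, 36.5 and 55.4 CPM in Control, 36.6, 44.3, 44.3, 53.7 and 54.6 CPM in Pool 1, and 265, 65.2, 90.1, 51.7 and 57.7 CPM in Pool 2 mice. Compared with Control mice its log2 fold change was 0.85 (SE 0.38) in Pool 2 mice and 0.17 (SE 0.23) without replicate 1. C1qc was at 58.1, 57.7, 44.8, 40.1 and 65.6 CPM in Vehicle, 58.1, 70.7, 41.1, 34.5 and 49.7 CPM in Control, 37.5, 40.8, 36.0, 48.01 and 52.2 CPM in Pool 1, and 206, 59.7, 77.7, 40.6 and 49.6 CPM in Pool 2 mice. Its log2 fold change was 0.77 (SE 0.35), and 0.16 (SE 0.21) without replicate 1. For both genes the highest and the lowest Control mice were replicates 2 and 4. All Pool 2 mice but the first lay inside the Control range for C1qb, and for C1qc replicate 3 lay above it as well.

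The proportions of the 3 chains varied little between libraries. Of the summed RPKM of the chains, C1qa made up 37.3% to 44.1%, C1qb 36.2% to 43.7% and C1qc 17.6% to 22.1% over all 20 libraries. In Pool 2 replicate 1 C1qc had its lowest share, 17.6%. Relative to the summed CPM of 12 microglia markers, the chains differed between that library and all others. Their summed CPM was 0.725 times that of the markers in Pool 2 replicate 1 and 0.262 to 0.415 times in the other libraries. The microglia markers were themselves 1017 CPM in that library, against 409 to 570 CPM in Control mice. Relative to the Control mean, single markers ranged in that library from 1.12 times for P2ry12, a purinergic receptor of microglia, to 4.75 times for Aif1, which encodes Iba1. Of the 12 microglia markers 3 were upregulated in Pool 2 against Control mice, where 5.20% of all genes were. None was without Pool 2 replicate 1, where 3.31% of all genes were. The part of microglia in the level of the chains was not tested.

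**Figure D2:**
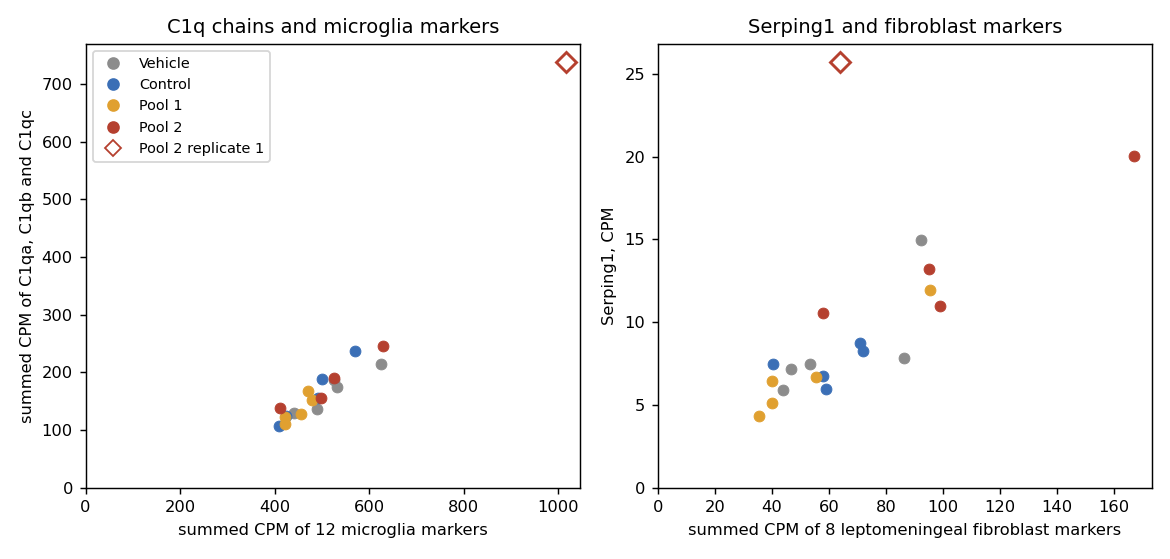
Left, summed CPM of C1qa, C1qb and C1qc against summed CPM of 12 microglia markers in each mouse; right, CPM of Serping1 against summed CPM of 8 leptomeningeal fibroblast markers. Pool 2 replicate 1 lies far above the other 19 mice on the left, at 738 CPM of C1q chains, and on the right it has the highest Serping1 with 64.0 CPM of fibroblast markers, within the Control range of 40.3 to 71.9 CPM.

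C4b encodes complement component C4, the substrate of the C1 complex, and in the brain it is known from astrocytes and oligodendrocytes. C4b was at 90.7, 114, 72.3, 49.1 and 101 CPM in Vehicle mice and at 64.1, 93.0, 49.9, 45.9 and 65.9 CPM in Control mice. It was at 39.3, 80.1, 40.8, 70.9 and 62.9 CPM in Pool 1 mice and at 374, 92.5, 109, 63.0 and 72.9 CPM in Pool 2 mice. The first Pool 2 mouse had 3.28 times the highest other value, which was in Vehicle replicate 2, and all 4 groups overlapped. C4b was 2.23-fold higher in Pool 2 than in Control mice, with means of 142 ± 131 (SD, n = 5) and 63.8 ± 18.5 CPM (SD, n = 5). On the log2 scale this was 1.16 (SE 0.43, unadjusted p = 0.0157, adjusted p = 0.536 by edgeR's quasi-likelihood test). The exact two-sided permutation test of mean log2 CPM over 5 against 5 mice gave p = 0.0873, where the smallest p-value it can give is 0.00794. Without Pool 2 replicate 1 the mean of C4b in Pool 2 was 84.3 ± 20.4 CPM (SD, n = 4), which gave a log2 fold change of 0.40 (SE 0.27, interval of 2 SE from -0.14 to 0.94), not past the threshold, and the exact permutation test over 4 against 5 mice gave p = 0.175.

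The copy C4a was far lower. It was at 2.70, 2.42, 1.86, 1.84 and 1.02 CPM in Vehicle, 2.41, 0.952, 1.93, 1.91 and 2.17 CPM in Control, 2.67, 2.38, 2.38, 1.64 and 2.28 CPM in Pool 1, and 3.66, 1.83, 1.96, 2.34 and 2.36 CPM in Pool 2 mice. For C4a the first Pool 2 mouse had 1.36 times the highest other value, the groups overlapped, and no comparison was past the threshold. In Pool 2 against Control mice its log2 fold change was 0.37 (SE 0.26), and 0.18 (SE 0.25) without Pool 2 replicate 1.

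C1ra encodes a C1r protease, which together with C1s forms the enzyme part of the C1 complex. C1ra was at 0.969, 1.99, 0.767, 2.24 and 1.16 CPM in Vehicle, 0.939, 1.19, 1.197, 0.914 and 0.752 CPM in Control, 1.78, 0.986, 1.26, 1.16 and 1.04 CPM in Pool 1, and 5.44, 1.48, 1.71, 2.04 and 0.859 CPM in Pool 2 mice. Of the Pool 2 mice, 4 were above all Control mice and replicate 5 was not. The log2 fold change was 1.197 (SE 0.38, adjusted p = 0.479 by edgeR's quasi-likelihood test), and the exact permutation test over 5 against 5 mice gave p = 0.0476. Without replicate 1 these were 0.61 (SE 0.30), with an unadjusted p = 0.0579 by edgeR, and p = 0.0952 by the exact permutation test. C1ra was past the threshold again when Vehicle replicate 4 was left out as well.

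C3 encodes the central component, whose cleavage is the step at which the branches of the cascade meet. C3 was at 9.31, 8.75, 0.767, 0.834 and 6.28 CPM in Vehicle mice and at 1.07, 2.98, 1.38, 0.755 and 0.265 CPM in Control mice. It was at 0.485, 0.448, 0.243, 0.862 and 4.53 CPM in Pool 1 mice and at 49.1, 3.89, 4.08, 0.668 and 0.644 CPM in Pool 2 mice. C3 varied widely within groups. Vehicle mice split into 3 at 6.28 to 9.31 CPM and 2 at 0.767 and 0.834 CPM, Pool 1 had a single high mouse, and Pool 2 replicate 1 was 5.27 times the highest other library. The log2 fold change in Pool 2 against Control mice was 3.16 (SE 1.2002), and 0.84 without replicate 1 (SE 0.96, interval of 2 SE from -1.08 to 2.76). The groups overlapped, and the latter interval includes both no difference and a large increase.

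C3ar1 and C5ar1 encode the receptors for the C3a and C5a fragments and are known from microglia and other myeloid cells. C3ar1 was at 4.63, 3.98, 2.06, 1.84 and 4.51 CPM in Vehicle, 2.77, 3.53, 1.75, 1.75 and 2.12 CPM in Control, 2.10, 2.47, 1.89, 2.59 and 2.08 CPM in Pool 1, and 8.09, 3.15, 3.75, 2.30 and 2.62 CPM in Pool 2 mice. All 4 groups overlapped, and Pool 2 replicate 1 was 1.75 times the highest other library. The log2 fold change against Control mice was 0.73 (SE 0.32), and 0.31 (SE 0.27) without replicate 1, not past the threshold.

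C5ar1 was the exception among the 9 genes. It was at 0.801, 0.390, 0.807, 0.658 and 0.977 CPM in Vehicle, 0.671, 0.635, 0.8286, 0.437 and 0.398 CPM in Control, 0.162, 0.672, 0.679, 0.259 and 0.831 CPM in Pool 1, and 1.01, 0.545, 1.08, 0.292 and 0.601 CPM in Pool 2 mice. Here Pool 2 replicate 1 ranked second, after Pool 2 replicate 3. The log2 fold change against Control mice was 0.25 (SE 0.39, interval of 2 SE from -0.53 to 1.03), and 0.089 (SE 0.41, interval from -0.73 to 0.91) without replicate 1, so an increase as large as that of C3ar1 could not be told from none at 4 to 26 counts per library.

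Serping1 encodes the C1 inhibitor, which blocks C1r and C1s and so restrains the classical branch. Serping1 was at 7.84, 7.14, 5.89, 7.46 and 14.9 CPM in Vehicle mice and at 5.99, 7.50, 6.72, 8.75 and 8.27 CPM in Control mice. It was at 6.68, 4.35, 5.10, 6.42 and 11.96 CPM in Pool 1 mice and at 25.7, 13.2, 10.5, 20.03 and 11.0 CPM in Pool 2 mice. All 5 Pool 2 mice were above all 5 Control mice, whereas they overlapped with the highest Vehicle and the highest Pool 1 mouse, each of which was replicate 5. Serping1 was 2.16-fold higher in Pool 2 than in Control mice, with means of 16.1 ± 6.59 (SD, n = 5) and 7.44 ± 1.12 CPM (SD, n = 5). On the log2 scale this was 1.11 (SE 0.29, unadjusted p = 0.00127, adjusted p = 0.450 by edgeR's quasi-likelihood test). The exact two-sided permutation test gave p = 0.00794, the smallest p-value that 5 against 5 mice can give.

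The increase of Serping1 did not rest on Pool 2 replicate 1. Without that library the Pool 2 mean was 13.7 ± 4.39 CPM (SD, n = 4), the log2 fold change was 0.88 (SE 0.28, unadjusted p = 0.00595, adjusted p = 0.782 by edgeR's quasi-likelihood test), and the exact permutation test gave p = 0.0159, the smallest that 4 against 5 mice can give. Serping1 was past the threshold under all 20 alternative settings tried, with log2 fold changes from 0.87 to 1.23. Its adjusted p-value ranged from 0.0586, with DESeq2 over all 20 libraries, to 0.806 over these alternatives and did not pass 0.05 in any of them. The fold change of Serping1 was not tested against those of the other genes.

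Markers of leptomeningeal fibroblasts, cells of the membranes around the brain, were also high in several libraries with high Serping1. The 8 markers (Dcn, Lum, Col1a1, Col1a2, Slc6a13, Igf2, Slc22a6 and Islr) summed to 43.9 to 92.3 CPM in Vehicle, 40.3 to 71.9 CPM in Control, 35.4 to 95.6 CPM in Pool 1 and 58.0 to 167 CPM in Pool 2 mice, and none of them was at 0 in any group. By mouse they summed to 64.0, 95.2, 58.0, 167 and 99.1 CPM in Pool 2 mice. The Vehicle and Pool 1 mice with the highest Serping1 had 92.3 and 95.6 CPM of these markers, each the highest of its group. Against Control mice 1 of the 8 markers was upregulated in Pool 2, where 5.20% of all genes were. Without replicate 1, 3 were, with a median log2 fold change of 0.66, where 3.31% of all genes were upregulated. The 7 markers of border macrophages, which sit in the same membranes, summed to 5.92 to 14.3 CPM in Pool 2 mice. They summed to at most 8.98 CPM in Vehicle, 6.32 CPM in Control and 7.31 CPM in Pool 1 mice. Pool 2 replicates 1 and 3 had more Serping1 than every Control mouse with fibroblast markers inside the Control range. The part of these cells in the level of Serping1 was not tested.

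**Figure D3:**
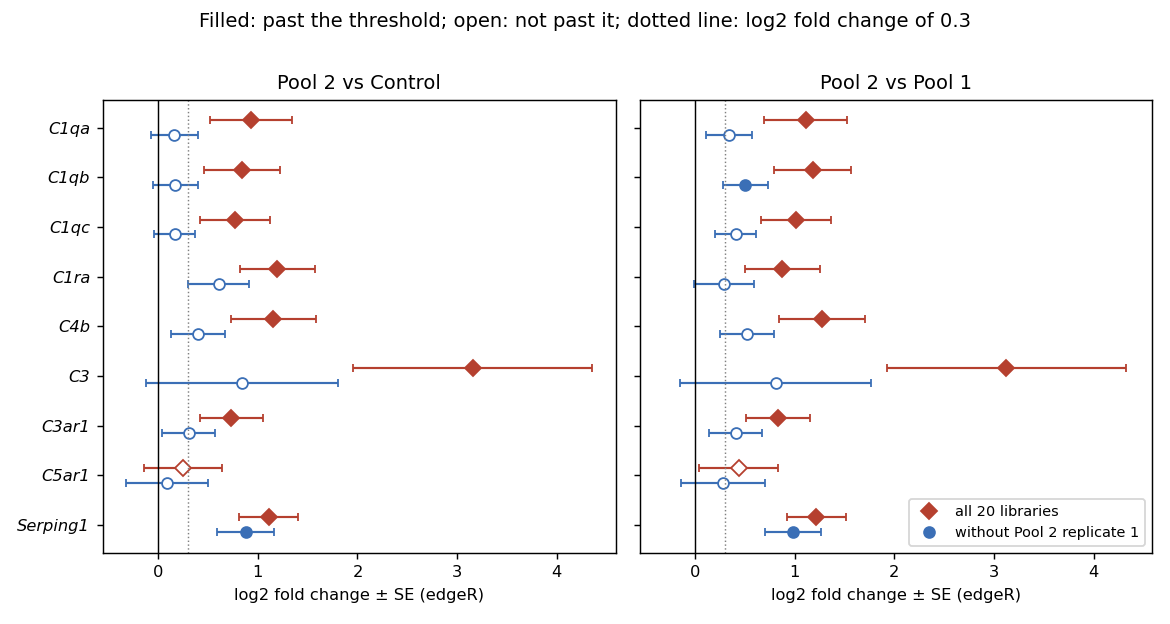
Log2 fold changes with SE of the 9 genes in Pool 2 against Control mice (left) and against Pool 1 mice (right), fitted over all 20 libraries (diamonds) and without Pool 2 replicate 1 (circles), with filled symbols for genes past the threshold. Against Control mice 8 genes are past it with all libraries and only Serping1 without replicate 1.

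Pool 2 was also compared with Pool 1 directly, as the test of whether the patient pools differ. All 8 genes other than C5ar1 were upregulated in Pool 2, where 5.66% of all genes were upregulated and 1.16% downregulated, with a median log2 fold change of 1.11 against 0.02 for all genes. Without Pool 2 replicate 1, C1qb and Serping1 remained past the threshold, where 3.67% of all genes were upregulated and 1.06% downregulated, and the median was 0.41. C4b had log2 fold changes of 1.27 (SE 0.43) with all libraries and 0.52 (SE 0.27) without replicate 1, the latter with an unadjusted p = 0.0720 by edgeR. C1qb had 1.18 (SE 0.38) and 0.50 (SE 0.23), and 3 of the 4 remaining Pool 2 mice were above all Pool 1 mice (exact permutation test, p = 0.0476).

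Serping1 had the smallest p-value of the 9 genes in that comparison too. Its log2 fold change was 1.22 (SE 0.30, adjusted p = 0.210 by edgeR's quasi-likelihood test), and without replicate 1 it was 0.99 (SE 0.28, adjusted p = 0.437). DESeq2 gave Serping1 an adjusted p of 0.0120 over all 20 libraries and 0.0893 without replicate 1, and over the alternatives the adjusted p ranged from 0.0120 to 0.608. Pool 1 replicate 5, at 11.96 CPM, lay inside the Pool 2 range, and the exact permutation test gave p = 0.0238 with all libraries and p = 0.0476 without Pool 2 replicate 1.

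In Pool 1 mice compared with Control mice, none of the 9 genes was past the threshold, where 1.48% of all genes were upregulated and 1.99% downregulated (1.53% and 2.20% without Pool 2 replicate 1). None had an unadjusted p-value under 0.05 by edgeR's quasi-likelihood test, nor did DESeq2 call any. Their log2 fold changes ran from -0.34 for C1qb to 0.32 for C1ra, with a median of -0.12 against -0.01 for all genes, and 7 of the 9 were negative. The interval of 2 SE was -0.97 to 0.74 for C4b over all 20 libraries and -0.63 to 0.40 without Pool 2 replicate 1, since the shared estimate of the spread is smaller without that library. This comparison and that of Pool 2 with Control share the 5 Control mice.

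In Control mice compared with Vehicle mice, which asks what human sRNAs do as such, none of the 9 genes was past the threshold either, by edgeR (none with an unadjusted p-value under 0.05) or by DESeq2, where 1.70% of all genes were upregulated and 3.41% downregulated. All but C1qb had negative log2 fold changes, with a median log2 fold change of -0.29 against -0.01 for all genes. C3 had the largest difference, a log2 fold change of -1.99 (SE 1.19). Its exact permutation test over 5 against 5 mice gave p = 0.119, and Vehicle replicates 3 and 4 lay inside the Control range. C3 was past the threshold without Pool 2 replicate 1 (SE 0.90, unadjusted p = 0.0424, adjusted p = 0.673 by edgeR's quasi-likelihood test), since that library widens the estimated spread. It was then the only one of the 9 genes past it. Without that library 1.74% of all genes were upregulated and 3.88% downregulated. C3ar1 was past the threshold without Vehicle replicate 4 and also without Control replicate 2. C4b differed by -0.42 (SE 0.43), and 4 of the 5 Vehicle mice had more C4b than the Control median of 64.1 CPM.

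Other genes of the pathway came from a list of 50, of which 38 are in the table analysed here and 30 had a mean count of at least 10. In Pool 2 against Control mice 7 of the 38 were upregulated and 1 downregulated, with a median log2 fold change of 0.18, and without Pool 2 replicate 1 these were 5 and 1, with a median of 0.12. Among the upregulated genes were C1s1, Vtn, Cd93, Colec12, Itgb2 and Itgax. The downregulated gene was Colec11, which encodes a collectin of the lectin branch. Its log2 fold changes were -0.71 (SE 0.31) and -0.89 (SE 0.32) without that library. Colec11 had only 4 to 21 counts per library. It was at 0.172 to 0.640 CPM in Pool 2 and 0.557 to 0.833 CPM in Control mice, so these groups overlapped. Against Pool 1 mice 7 were upregulated and none downregulated, among them C1s1, Cd93, Colec12, Itgb2, Itgax and Itgam, with a median log2 fold change of 0.33. Without Pool 2 replicate 1 these were 6 and none, with a median of 0.16, and Itgam was no longer past the threshold. None of the 38 was past the threshold in Pool 1 against Control mice, and Itgam alone was without Pool 2 replicate 1 (log2 fold change, -0.38, SE 0.16). The shares of all genes are those given above for each comparison. In Control against Vehicle mice Hc, the gene of component C5, was the single one past it, with a log2 fold change of -1.07 (SE 0.51) at 0.0894 to 0.414 CPM in Control mice, which reaches below 3 counts.

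C1s1, which encodes the C1s protease that Serping1 inhibits together with C1r, was at 5.30, 1.64, 0.875, 1.71 and 0.816 CPM in Pool 2 mice and at 0.322 to 1.06 CPM in Control mice. Its log2 fold change was 1.46 (SE 0.40), and 0.76 (SE 0.31) without replicate 1, past the threshold in both. Replicates 1, 2 and 4 were above all Control mice.

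Cd93, the gene of a transmembrane protein of endothelial and myeloid cells once described as a C1q receptor, was at 11.0, 9.46, 8.25, 9.97 and 7.99 CPM in Pool 2 mice. In Control mice it was at 5.68, 5.83, 3.64, 5.96 and 8.40 CPM, so that replicate 5 overlapped. Its log2 fold change was 0.66 (SE 0.17), and 0.59 (SE 0.18) without replicate 1. Vtn, which encodes vitronectin, an inhibitor of the terminal complex, was at 64.2 to 112 CPM in Pool 2 and 36.2 to 70.1 CPM in Control mice, with log2 fold changes of 0.51 (SE 0.20) and 0.52 (SE 0.22) without replicate 1. The scavenger collectin gene Colec12 had 0.54 (SE 0.20) and 0.65 (SE 0.20).

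Itgb2, Itgax and Itgam encode chains of the integrins that serve as complement receptors of myeloid cells, and the first Pool 2 mouse was the highest of its group for each. Itgb2 was at 28.98, 8.72, 10.7, 6.09 and 6.49 CPM in Pool 2 mice and at 5.09 to 9.68 CPM in Control mice, and its log2 fold change went from 0.85 (SE 0.34) to 0.24 (SE 0.20) without that mouse. Itgax was at 8.64, 2.03, 2.33, 1.34 and 0.644 CPM in Pool 2 mice, with log2 fold changes of 1.86 (SE 0.65) and 0.95 (SE 0.55). Itgam was at 14.99 CPM in that mouse and at 6.59 to 8.54 CPM in the other Pool 2 mice, and its log2 fold change against Pool 1 mice was 0.54 (SE 0.20), and 0.29 (SE 0.17) without that mouse.

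Pool 2 replicate 1 was therefore set beside the marker lists of the cells the tissue could hold. The 9 complement genes summed to 1201 CPM in it, 5.03 times the Control mean and 3.20 times the highest other library. Interferon-stimulated genes, a list of 10 that includes Ifit1, Irf7 and Isg15, summed to 6.49 times the Control mean and 3.58 times the highest other library. In Pool 2 against Control mice all 10 were upregulated with that library, and 3 of the 10 without it. The shares of all genes upregulated were 5.20% and 3.31%. Markers of microglia stood at 2.12 times the Control mean, and those of blood and neutrophils at 2.68 times, with 171 CPM.

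Choroid plexus markers were at 0.136 times the Control mean in that mouse. Control replicate 3, at 3.30 times, raised that mean, and Control replicates 4 and 5 were at 0.168 and 0.193 times. Astrocyte markers were at 1.40 times the Control mean, with Gfap, the intermediate filament gene of reactive astrocytes, at 1401 CPM against 440 to 821 CPM in Control mice. Endothelial markers were at 1.44 times, reactive astrocyte markers at 1.44 times and oligodendrocyte markers at 1.26 times, while neuron markers were at 0.992 times and leptomeningeal fibroblast markers at 1.07 times the Control mean. Border macrophage markers were at 1.55 times, which 3 other Pool 2 mice exceeded. Over the other 4 Pool 2 mice, the summed microglia markers were 412 to 629 CPM and the interferon-stimulated genes 29.6 to 47.5 CPM, overlapping with the 409 to 570 CPM and 23.2 to 34.5 CPM of Control mice. The part of these cells and of the interferon-stimulated genes in the complement levels of that library was not tested.

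**Figure D4:**
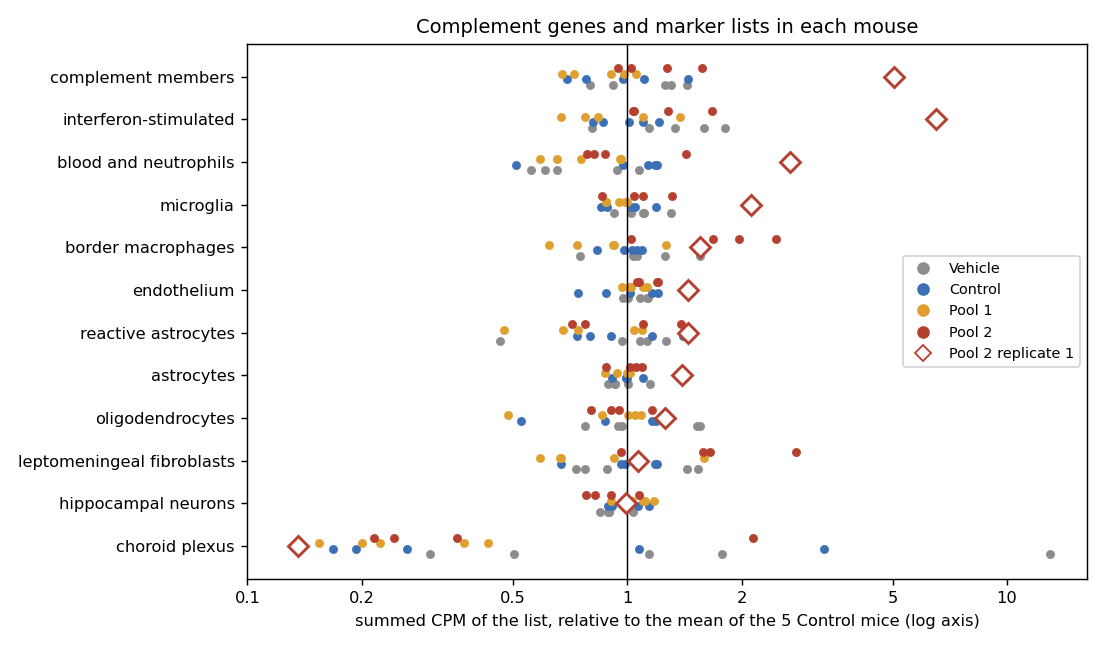
Summed CPM of the 9 complement genes and of each marker list in each mouse, relative to the mean of the 5 Control mice, on a log axis. Pool 2 replicate 1 (open diamond) is at 5.03 for complement genes and 6.49 for interferon-stimulated genes, and at 0.992 for neurons and 0.136 for choroid plexus. For choroid plexus, Control replicates 4 and 5 are at 0.168 and 0.193, and Control replicate 3 is at 3.30.

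The genes most like each of C4b, C1qa and Serping1 were sought among 11776 genes with a mean of at least 5 CPM, leaving out the 9 genes themselves, by Pearson correlation of log2 CPM over libraries, as a description across samples that share a preparation and with no test. C4b was most like Pld4, Mpeg1, Unc93b1, Ctss and Laptm5 over the 20 libraries (r = 0.94 to 0.96), genes known from macrophages and microglia. Over the 19 libraries without Pool 2 replicate 1 the list was Mpeg1, Pld4, Unc93b1, Ctss and Lag3 (r = 0.85 to 0.91), so 4 of the 5 names stayed. C1qa was most like Ctss, Trem2, Laptm5, Grn and Ctsh (r = 0.96 to 0.98), and over 19 libraries like Trem2, Ctss, Lag3 and Ctsh (r = 0.91 to 0.93), which are lysosomal and microglial genes.

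Serping1 had a different set. Over the 20 libraries it was most like Serpinf1, Cyp1b1, Cmtm3, Slc22a4 and Lyz2 (r = 0.81 to 0.87), and over 19 libraries like Slc6a13, Efemp1, Serpinf1, Col1a2 and Fbln1 (r = 0.86 to 0.87). Slc6a13 and Col1a2 belong to the fibroblast list above, and Efemp1 and Fbln1 encode extracellular matrix proteins. With C4b the correlation of Serping1 was 0.57 over 20 libraries and 0.27 over 19, whereas that of C4b with C1qa was 0.93 and 0.82.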

How the data were processed

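Polyadenylated RNA of hippocampal tissue was sequenced as stranded single-end reads of 50 nt. The authors aligned the reads with STAR to GRCm38 (mm10) with the GENCODE M20 annotation and deposited gene counts for 20 libraries. Genes with a total below 10 are absent from the deposited table of counts. Which strand setting was counted is not given in the sources used here. Gene positions and lengths were taken from GENCODE M21, which holds 99.8% of the gene IDs, and 16 gene names are shared by several IDs. All 25190 genes were fitted with edgeR 4.0.16 in R 4.3.3 (TMM normalization, robust quasi-likelihood fit over the 4 groups, Benjamini-Hochberg adjustment), after the script had been tested on simulated data. CPM and RPKM used TMM-normalized library sizes, and log2 CPM used a prior count of 2. Exact permutation tests were two-sided and compared mean log2 CPM. The alternatives were DESeq2 1.42.0, its size factors, filters on low counts (a mean of at least 10, or filterByExpr), another spread estimate, a replicate block, fits of the compared groups alone and left-out libraries. DESeq2 without Pool 2 replicate 1 was added after seeing the data. The text names the 9 genes, C4a, other complement genes past the threshold in a comparison, and the 5 genes most like C4b, C1qa and Serping1. Results of a few genes that this rule would name are not reported here. Members and lists were chosen with earlier results of these data known.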

Additional observations from a re-analysis of the deposited data

Results flagged for a closer look

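Of 36 sets of 5 mice (9 genes in 4 groups), 9 held a value that stood far from the others of its set by Dixon's test on CPM, without logs. Chance alone flags about 1 in 20 sets only where values are normally distributed. That was not checked for CPM, so the count of 9 cannot be set against this rate. Pool 2 replicate 1 was that value in 7 of them, as the highest of its group: 267 CPM for C1qa, 265 CPM for C1qb, 206 CPM for C1qc, 5.44 CPM for C1ra, 49.1 CPM for C3, 374 CPM for C4b and 8.09 CPM for C3ar1. These 7 values come from the same library and are not independent. The others were C3 in Pool 1 replicate 5, at 4.53 CPM, and Serping1 in Vehicle replicate 5, at 14.9 CPM, the library that also had the highest C1qa outside Pool 2 replicate 1.

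In the direct test of Pool 2 against Pool 1, 8 genes were past the threshold, where 5.66% of all genes were upregulated and 1.16% downregulated. Their adjusted p-values were 0.210 to 0.510 by edgeR's quasi-likelihood test. The differences in log2 fold change were 1.11 for C1qa, 1.18 for C1qb, 1.02 for C1qc, 0.88 for C1ra, 3.12 for C3, 1.27 for C4b, 0.83 for C3ar1 and 1.22 for Serping1. Without Pool 2 replicate 1 only C1qb, at 0.50, and Serping1, at 0.99, remained past the threshold, where 3.67% of all genes were upregulated.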

How the results depend on the processing

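In Pool 2 against Control mice the number of complement genes past the threshold, 8 over all libraries, was 1 to 8 when single libraries were left out, with 1 without Pool 2 replicate 1 and 4 without Control replicate 3, 4 or 5. It was 3 with only the groups compared, 1 with DESeq2 without Pool 2 replicate 1 and 2 without Pool 2 replicate 1 and Vehicle replicate 4. Of all genes, 973, 652 and 852 were upregulated in these fits, in that order. The genes tested were 25190 with edgeR and 25173 in that DESeq2 fit. In Pool 2 against Pool 1 mice the number of complement genes was 2 to 8 with single libraries left out (2 without Pool 2 replicate 1). It was 4 with only the groups compared, 3 with DESeq2 without Pool 2 replicate 1 and 3 without both libraries. Of all genes, 1135, 753 and 985 were upregulated in these fits, in that order. In Control against Vehicle mice the number of complement genes was 0 to 1 with single libraries left out. It was 1 with only the groups compared, 1 with DESeq2 without Pool 2 replicate 1 and 3 without both libraries, all of them downregulated. Of all genes, 747, 848 and 850 were downregulated in these fits, in that order. In Pool 1 against Control mice the number of complement genes was 0 throughout. With the replicate number as a block it was 4 in Pool 2 against Control mice, 7 against Pool 1 mice and 0 in the other comparisons. Under the block 1190 of all genes were upregulated in Pool 2 against Control mice and 1301 against Pool 1 mice. The deviations of same-numbered libraries correlated at r from -0.32 to 0.28 over 30 pairs (median 0.028). In the 120 pairs with different numbers r was -0.42 to 0.47 (median -0.015). These overlapping ranges cannot tell whether the numbers pair the samples. Of 738 single-gene alternatives 652 kept direction and side of the threshold, 65 lost it, 8 gained it and 13 changed sign, none of them in the Pool 2 comparisons. Under the block, C3 in Pool 1 against Control mice was -0.023. The other 12 sign changes came with 1 library left out, over which log2 fold changes in Pool 1 against Control mice ranged from -1.33 to 0.62 for C3, -0.25 to 0.059 for C4b, -0.20 to 0.086 for C3ar1, -0.43 to 0.042 for C5ar1 and -0.40 to 0.019 for Serping1. In Control against Vehicle mice they ranged from -0.14 to 0.22 for C1qb, -0.22 to 0.051 for C1qc and -0.33 to 0.073 for Serping1. The causes were not tested. Depth limits C5ar1, with 4 to 26 counts per library, and C3, with 5 in its lowest.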
